A study of Mus musculus with 14 samples.

Results

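The genes described are 33 lysosomal genes: 22 hydrolases that break down glycans, sulfated sugars, lipids and proteins, and 11 genes for the activator, transfer, sorting and membrane proteins around them. They were chosen by symbol, with no threshold on their values, and loss of most of them causes a lysosomal storage disease in humans. All 33 were found among the 24394 named genes of the table, and all 33 passed the filter on low values that left 11646 genes for testing. RNA was sequenced from microglia, the resident macrophages of the brain, sorted alive as CD11b+ and CD45 low cells. Every mouse was of the C57BL/6 strain, was 18 months old and had carried a pump that released antibody into the cerebrospinal fluid for 1 month. In the anti-CD22 group (7 libraries) the antibody blocked CD22, an inhibitory receptor that binds sialic acid, and in the IgG group (7 libraries) it was a control IgG. Both groups had thus undergone cannulation and infusion, and the hemisphere used was the one opposite the cannula. The labels give neither the sex of the mice nor whether libraries stem from separate animals, so p-values measure the spread between these libraries, which may be technical.

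Lysosomal hydrolases are made in the endoplasmic reticulum, receive a mannose 6-phosphate tag or bind another sorting receptor, and are carried to the acidic lysosome, where each removes a particular sugar, sulfate, fatty acid or peptide. When 1 enzyme is missing, its substrate piles up, and in the brain microglia and other macrophages are among the cells that store it, since they take up myelin and dead cells. Many of these genes are driven by TFEB and its relatives, transcription factors that bind an E-box known as the CLEAR element.

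The libraries held 20221836 to 38101421 reads in the 13 used for the count models, and the deposited normalized counts summed to 27357939 to 29197481 per library. All 10 microglia markers were well expressed, with a summed level of 1342467 to 1634876 normalized counts per IgG library and 1450603 to 1541494 per anti-CD22 library. Summed markers of border macrophages were at 102 to 1684 with IgG and 262 to 2403 with anti-CD22. The sums for astrocytes were 5904 to 8601 and 6612 to 8442, for oligodendrocytes 5451 to 6711 and 4949 to 5662, and for endothelium 635 to 1216 and 885 to 1235. Those of monocytes were at 137 to 9181 and 88.2 to 2313, and those of lymphocytes and neurons were at no more than 112 in any library. Neutrophil markers ranged from 3.34 to 54005 in IgG libraries and from 0 to 10216 in anti-CD22 libraries. The part of these cells in the results was not tested. Cd22, the antibody's target, had 1469 ± 279 normalized counts (SD, n = 7) in IgG libraries and 1481 ± 184 (SD, n = 7) in anti-CD22 libraries. Anti-CD22 replicates 1, 2 and 3 stood apart by a trend with transcript length: their deviations from the mean of all libraries had a rank correlation with length of 0.310, 0.286 and 0.327 across genes, against -0.269 to 0.136 in the other 4 anti-CD22 libraries and -0.259 to -0.0029 in the IgG libraries.

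The promoters of the members were searched for the core of the CLEAR element, since it is what many of these genes are known to share. RefSeq (GRCm38.p6) gave a promoter, from 250 bases before to 50 bases after the start of the gene, for 28 of the 33 members, and none for Npc1, Aga, Asah1, Galns and Sort1. The palindrome CACGTG, which reads the same on both strands, was present in 8 of these 28 (28.6%), against 8.09% of the 27025 genes with a promoter and 12.01% of the 8961 genes that were also tested. The longer GTCACGTG, searched on both strands and always overlapping a CACGTG, was present in 7 of the 28 (25%), against 2.55% and 5.02%. One 30-base window for each of the 8 members is shown, read 5′ to 3′ on the strand of the gene, with CACGTG in capitals:
Cln3: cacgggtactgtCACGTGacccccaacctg
Lamp1: gatgccgactggCACGTGaccacatcacgt
Glb1: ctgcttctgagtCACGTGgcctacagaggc
Naglu: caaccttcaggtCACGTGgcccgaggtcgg
Gaa: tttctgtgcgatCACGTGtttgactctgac
Sgsh: gggcctgccgtgCACGTGaccgtggggagc
Arsa: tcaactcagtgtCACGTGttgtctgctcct
Gla: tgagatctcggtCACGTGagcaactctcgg
The Glb1 window lies at chr9:114401018-114401047 (forward strand), and its motif begins 48 bases upstream of the start. The Naglu window lies at chr11:101070009-101070038 (forward strand, 73 bases upstream) and the Gaa window at chr11:119267811-119267840 (forward strand, 140 bases upstream). The Lamp1 window lies at chr8:13159121-13159150 (forward strand, 28 bases upstream) and holds 1 of 4 copies in that promoter. On the reverse strand, the Sgsh window lies at chr11:119355522-119355551 (29 bases upstream), the Arsa window at chr15:89477423-89477452 (16 bases upstream) and the Cln3 window at chr7:126583340-126583369. RefSeq lists 2 starts for Cln3: this window is 121 bases upstream of the one inside the annotated gene, and the promoter at the outer start has 0 matches. The Gla window lies at chrX:134601182-134601211 (reverse strand, 194 bases upstream). That Cln3 promoter and the Gla promoter each hold 2 copies. All distances are from the RefSeq starts, which can differ from those of the annotation used for gene coordinates. There Naglu starts at 101070012, so its motif lies inside the gene, and Sgsh starts at 119355536, within its motif. A gene with several listed promoters, among the members and among all genes, was counted when any of them held the motif. Gaa alone of the 8 has no GTCACGTG. A match describes these letters only and is not a measured binding site.

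The members were strongly expressed as a group, but over a wide range. Together they took 2.54 ± 0.109% (SD, n = 7) of the counts with IgG and 2.57 ± 0.0662% (SD, n = 7) in anti-CD22 libraries. Genes are compared here only per kilobase of their longest annotated transcript. On that scale 21 of the 33 were in the top 10% of the 11224 tested genes with a known length. Grn ranked 21 and Psap ranked 27 among these genes. Grn encodes progranulin, a secreted and lysosomal glycoprotein, and Psap encodes prosaposin, the precursor of the saposins that present glycolipids to hydrolases. Grn (chromosome 11: 102430315 to 102437048, GRCm38) had 55933 ± 4234 normalized counts per kb (SD, n = 7) in IgG libraries, and Psap (chromosome 10: 60277627 to 60302597) had 46623 ± 6757 (SD, n = 7). These neighbours in the order overlapped within their spread, and together they made up 35.3% of the members' counts. Cd68, a macrophage relative of the LAMP proteins, followed at 35481 ± 2407 per kb (SD, n = 7), and then Hexa at 23883 ± 1350.1 and Lamp1 at 23712 ± 1503 (SD, n = 7), which did not differ beyond their spread.

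**Figure D1:**
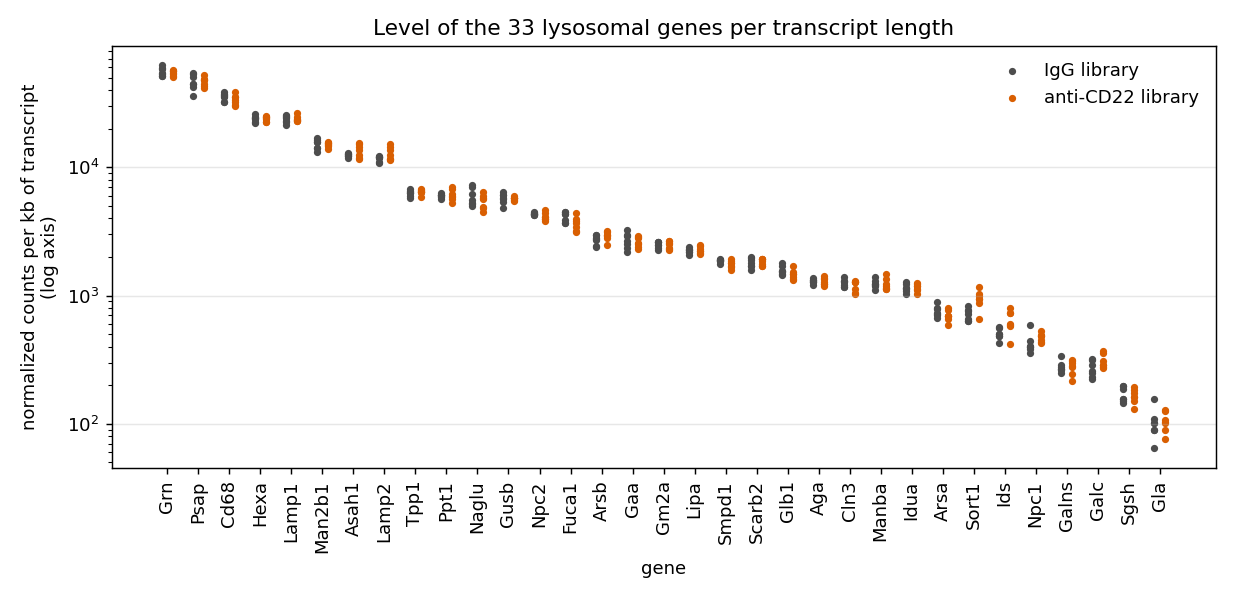
Normalized count per kb of transcript (log10 axis) for each of the 33 members, with 1 point per library in the 14 libraries and members ordered by level. Grn and Psap lie at the top and Gla at the bottom, and for every member the points of the 2 groups overlap.

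The bottom of the order was held by Galns, Galc, Sgsh and Gla. Galns and Galc had 279 ± 28.4 and 270.1 ± 39.4 normalized counts per kb (SD, n = 7) in IgG libraries and could not be told apart by their spread. Galns encodes the sulfatase lost in Morquio disease, and Galc the galactosylceramidase of myelin lipids lost in Krabbe disease. Sgsh, the heparan sulfamidase lost in Sanfilippo disease type A, was at 170.2 ± 23.1 and Gla at 102 ± 28 (SD, n = 7). Gla (chromosome X: 134588149 to 134601125), the α-galactosidase A lost in Fabry disease, stood 551-fold below Grn per kb in IgG libraries. It had 204, 321 and 494 normalized counts as the lowest, median and highest IgG library, and 242, 329 and 409.8 in the anti-CD22 libraries. It was also the least precise member, with a log2 fold change of 0.07 and a 95% interval from -0.29 to 0.42.

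Whether blockade of CD22 altered the RNA of these genes was asked by comparing the groups gene by gene. No member passed the test: limma on log2(normalized count + 1), with Benjamini-Hochberg adjustment over all 11646 genes, called 0 of 33, and it called 1 gene in the whole table (0.00859%). At an unadjusted p under 0.05 were 12.8% of all genes and 15.98% of the 7379 genes whose mean was at or above the lowest member's. At that threshold there were 4 members (12.1%). The 3 that were higher with anti-CD22 were Sort1, Ids and Lamp2, against a background of 6.80% for higher genes, and the 1 that was lower was Fuca1, against 5.95% for lower genes. For 0 members did the groups fail to overlap, as 0.258% of all genes did. In bulk RNA of sorted cells, fewer cells of a type and less RNA per cell cannot be told apart, and this holds for every difference given here.

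The members' log2 fold changes were centred on 0 and small. Of the 33, 16 were higher and 17 lower with anti-CD22, with a median of -0.0028 against 0.0011 for all genes. With each library rescaled to the same total the split was 21 higher to 12 lower, and with quantile normalization 20 to 13. The members' median was 0.0095 after rescaling, against 0.0133 for all genes. With quantile normalization it was 0.0128, against -0.011 for all genes. A log2 fold change under 0.1 in size was found for 22 of the 33, against 38.5% of all genes and 47.3% of the 7379 genes whose mean was at or above that of the lowest member. For 26 members the 95% interval lay within a 1.25-fold change in either direction. The 7 others were Sort1, Ids, Galc, Npc1, Gla, Fuca1 and Naglu. The members' median 95% margin was 0.13 on the log2 scale, against 0.21 for those 7379 genes and 0.28 for all genes.

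**Figure D2:**
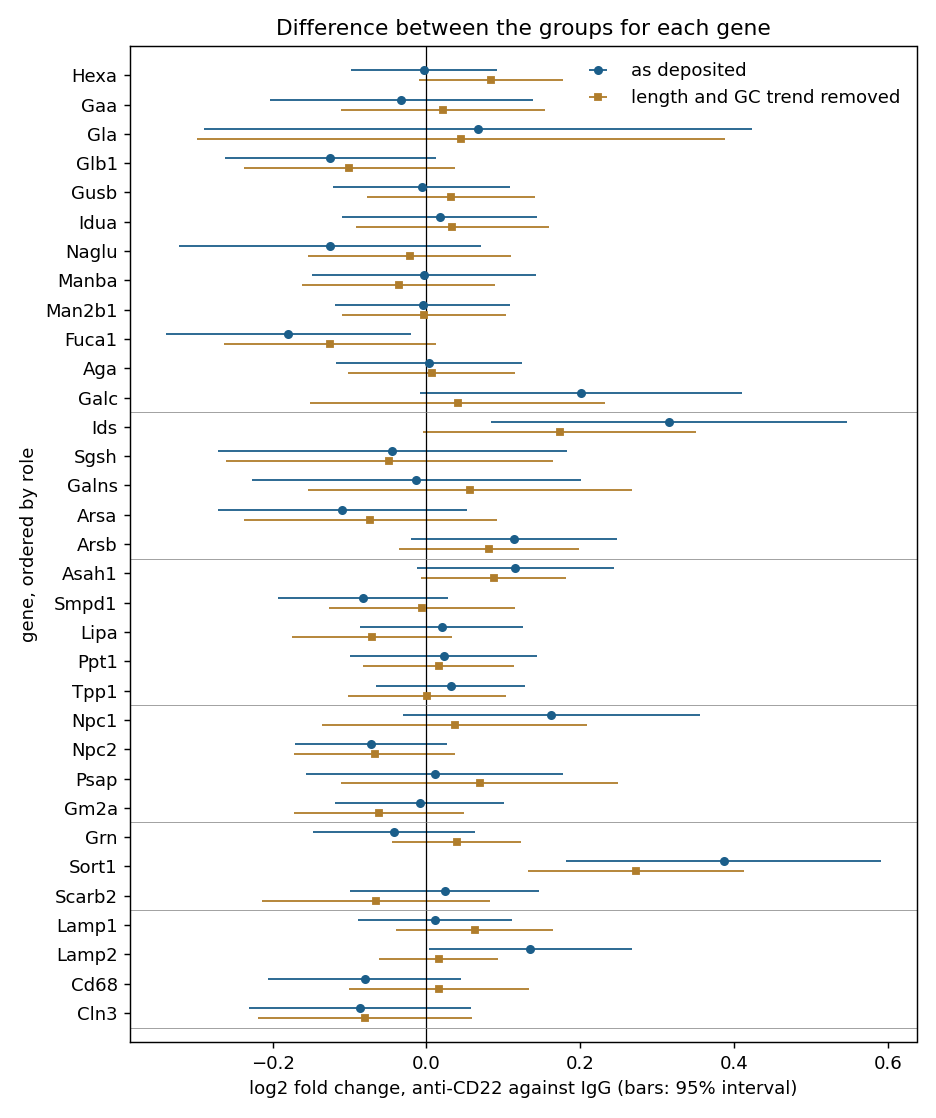
Log2 fold change of anti-CD22 against IgG for each member, grouped by role, with its 95% interval from limma (7 libraries per group). Sort1 and Ids extend farthest to the right, at 0.39 and 0.32, and the lowest bound on the left is -0.34, for Fuca1.

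The group of progranulin and the sorting receptors held the member with the largest difference, Sort1. Grn had 120289.7, 127856 and 146352 normalized counts (lowest, median and highest) with IgG and 117512, 127909 and 134004 in the anti-CD22 libraries. The log2 fold change was -0.04 (95% interval -0.15 to 0.06), and 0.040 with the trend on length and GC content removed. Sort1 (chromosome 3: 108284082 to 108361511), which encodes sortilin, the receptor that takes up progranulin and sorts prosaposin and other lysosomal cargo, had the largest difference of all 33. Its IgG libraries ran from 4297 through a median of 4924 to 5691, and its anti-CD22 libraries from 4499.9 through 6415 to 7927. In 6 of the 7 anti-CD22 libraries Sort1 was above every IgG library, and replicate 7 was the exception. The log2 fold change was 0.39 (SE 0.0978, 95% interval 0.18 to 0.59), 1.31-fold, with an adjusted p of 0.185 in limma. Adjusted p was 0.0576 in DESeq2 and 0.403 in edgeR, both on the reads of 13 libraries.

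The difference in Sort1 held its direction without the libraries of steep length trend, and its call depended on a single library. With the trend on length and GC content removed its log2 fold change was 0.27 (95% interval 0.13 to 0.41, adjusted p = 0.228), and without anti-CD22 replicates 1 to 3 it was 0.27 (adjusted p = 0.922). Without anti-CD22 replicate 7, limma called 43 genes (0.369% of all), among them Sort1, at 0.47 with an adjusted p of 0.0239, and Ids, at 0.41 with an adjusted p of 0.0455. Replicate 7 had the lowest rank correlation with transcript length of all libraries (-0.269), so leaving it out widened the difference in length trend between the groups. The transcripts of Sort1 and Ids have 6836 and 4972 bases. The part of length in these calls was not tested. Over the 14 fits that each left out 1 library, adjusted p of Sort1 ranged from 0.0239 to 0.402. Scarb2 encodes LIMP-2, a lysosomal membrane protein that also serves as a sorting receptor. It had 8484 ± 704 normalized counts (SD, n = 7) in IgG libraries and 8612 ± 519.7 (SD, n = 7) in anti-CD22 libraries, which is a log2 difference of 0.02 (95% interval -0.10 to 0.15).

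**Figure D3:**
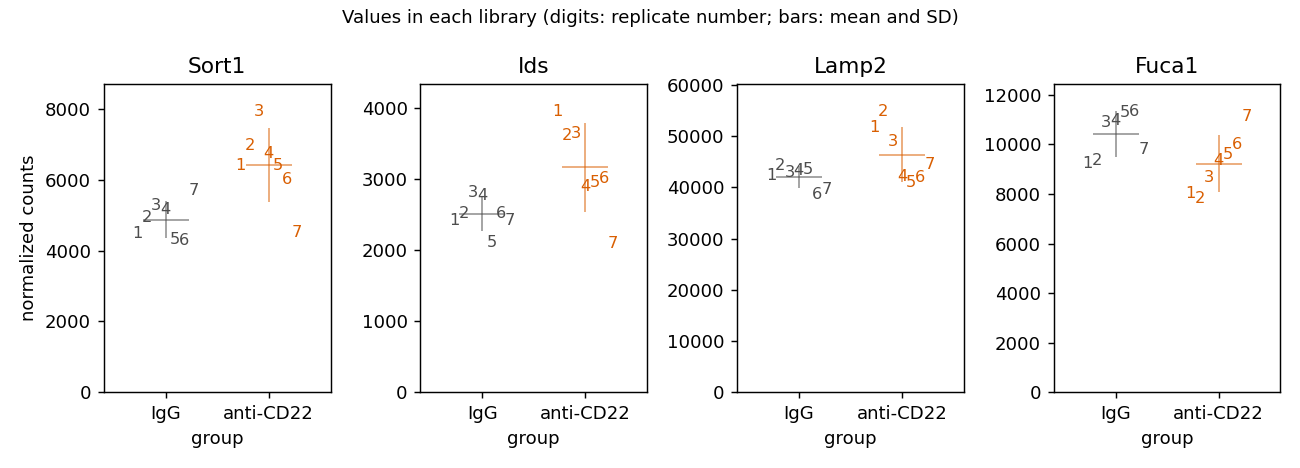
Normalized counts of Sort1, Ids, Lamp2 and Fuca1 in each library (points, numbered by replicate), with the group mean and SD (n = 7 per group), each on its own axis. In Sort1 and Ids 6 anti-CD22 libraries lie above all IgG libraries and replicate 7 does not; in Lamp2 replicates 1 to 3 are highest, at 48885 to 54772.

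Among the sulfatases, Ids had the only difference at an unadjusted p under 0.05. It encodes iduronate 2-sulfatase, which starts the breakdown of heparan and dermatan sulfate and is lost in Hunter disease. Ids (chromosome X: 70343069 to 70365084) ran from 2112 through a median of 2511 to 2809 normalized counts with IgG, and from 2097 through 3003 to 3950.0 with anti-CD22. As with Sort1, 6 of 7 anti-CD22 libraries were above every IgG library, while replicate 7 was below all of them. The log2 fold change was 0.32 (SE 0.111, 95% interval 0.08 to 0.55, adjusted p = 0.289), 1.24-fold. With the length and GC trend removed it was 0.17 (95% interval -0.00 to 0.35, adjusted p = 0.564), and without anti-CD22 replicates 1 to 3 it was 0.12.

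The other 4 enzymes of sulfated substrates lay on both sides of 0. Arsb, the arylsulfatase of dermatan and chondroitin sulfate, had 10947 ± 955 normalized counts (SD, n = 7) in IgG libraries and 11839 ± 939 (SD, n = 7) in anti-CD22 libraries, and 6 of 7 anti-CD22 libraries were above the IgG median (log2 fold change 0.11, 95% interval -0.02 to 0.25). Arsa, which removes sulfate from the myelin lipid sulfatide, had 2634 ± 253 and 2443 ± 250.2 (SD, n = 7; -0.11, 95% interval -0.27 to 0.05). With the length and GC trend removed, Arsb was at 0.08 and Arsa at -0.07. Sgsh and Galns, at 742 ± 100.5 and 713 ± 72.5 with IgG against 719 ± 93.9 and 709.7 ± 93.4 with anti-CD22 (SD, n = 7), differed by -0.04 and -0.01. Over all 5 the median log2 fold change was -0.013, with 2 higher and 3 lower. Sgsh, Arsb and Arsa share 21.6%, 32.3% and 18.8% of their exon bases with a gene on the other strand, so their counts are uncertain if strand was not used in counting, which the labels do not say. The partner of Sgsh was at 0 in every library.

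Of the 12 genes grouped here with the glycosidases, most of which remove sugars from glycoproteins, glycolipids or glycosaminoglycans, 4 were higher and 8 lower. Their median log2 fold change was -0.0039. Fuca1 (chromosome 4: 135920735 to 135940311), the fucosidase lost in fucosidosis, was the 1 member lower at an unadjusted p under 0.05. Its IgG libraries ran from 9238 through a median of 10889 to 11317 normalized counts, and its anti-CD22 libraries from 7834 through 9365 to 11113. The groups overlapped, with 3 anti-CD22 libraries below every IgG library and 1 above the IgG median. The log2 fold change was -0.18 (SE 0.076, 95% interval -0.34 to -0.02, adjusted p = 0.349). It was -0.13 with the trend removed (adjusted p = 0.596) and -0.05 without anti-CD22 replicates 1 to 3 (adjusted p = 0.996).

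The glycosidases of gangliosides and heparan sulfate gave intervals that included 0. Hexa, the α subunit of β-hexosaminidase A that is lost in Tay-Sachs disease, had 47671 ± 2695 normalized counts (SD, n = 7) in IgG libraries and 47549.8 ± 2114 (SD, n = 7) in anti-CD22 libraries, and its 95% interval from -0.10 to 0.09 was the narrowest of the 33. Glb1, the β-galactosidase lost in GM1 gangliosidosis and the source of senescence-associated β-galactosidase activity, had 4454 ± 356 and 4086 ± 352 (SD, n = 7), with 6 of 7 anti-CD22 libraries below the IgG median (-0.12, 95% interval -0.26 to 0.01). With the trend removed the difference of Glb1 was -0.10. Naglu, a heparan sulfate glucosaminidase, had 15174 ± 2369 and 13876 ± 1817 (SD, n = 7; -0.13, 95% interval -0.32 to 0.07), and with the trend removed its difference was -0.02. Idua and Gusb, which remove iduronic and glucuronic acid, differed by 0.02 and -0.01, with 95% intervals from -0.11 to 0.14 and from -0.12 to 0.11. Glb1 shares 5.49% of its exon bases with Tmppe on the same strand, which had a mean of 942 normalized counts, so reads there cannot be assigned to either gene. Of Hexa's exon bases 12.8% are shared with Tmem202 on the other strand, which had a mean of 21.1 normalized counts.

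Galc, low among the members, was the 1 glycosidase with all 7 anti-CD22 libraries above the IgG median. It had 996, 1144 and 1431 normalized counts (lowest, median, highest) with IgG and 1217, 1287 and 1628 with anti-CD22. The ranges overlapped, the log2 fold change was 0.20 (SE 0.1, 95% interval -0.01 to 0.41, adjusted p = 0.413), and with the trend removed it was 0.04. DESeq2 and edgeR on 13 libraries put Galc, with Ids and Sort1, at an unadjusted p under 0.05, but not past adjustment (0.36 in DESeq2 and 0.556 in edgeR). The glycoprotein enzymes Manba, Man2b1 and Aga, of β-mannose, α-mannose and asparagine-linked sugar, each had a log2 fold change that rounds to 0.00, with 95% intervals from -0.15 to 0.14, -0.12 to 0.11 and -0.12 to 0.12. Gaa, the glycogen-degrading enzyme lost in Pompe disease, had 9784 ± 1350.3 and 9524 ± 894 (SD, n = 7; -0.03, 95% interval -0.20 to 0.14).

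**Figure D4:**
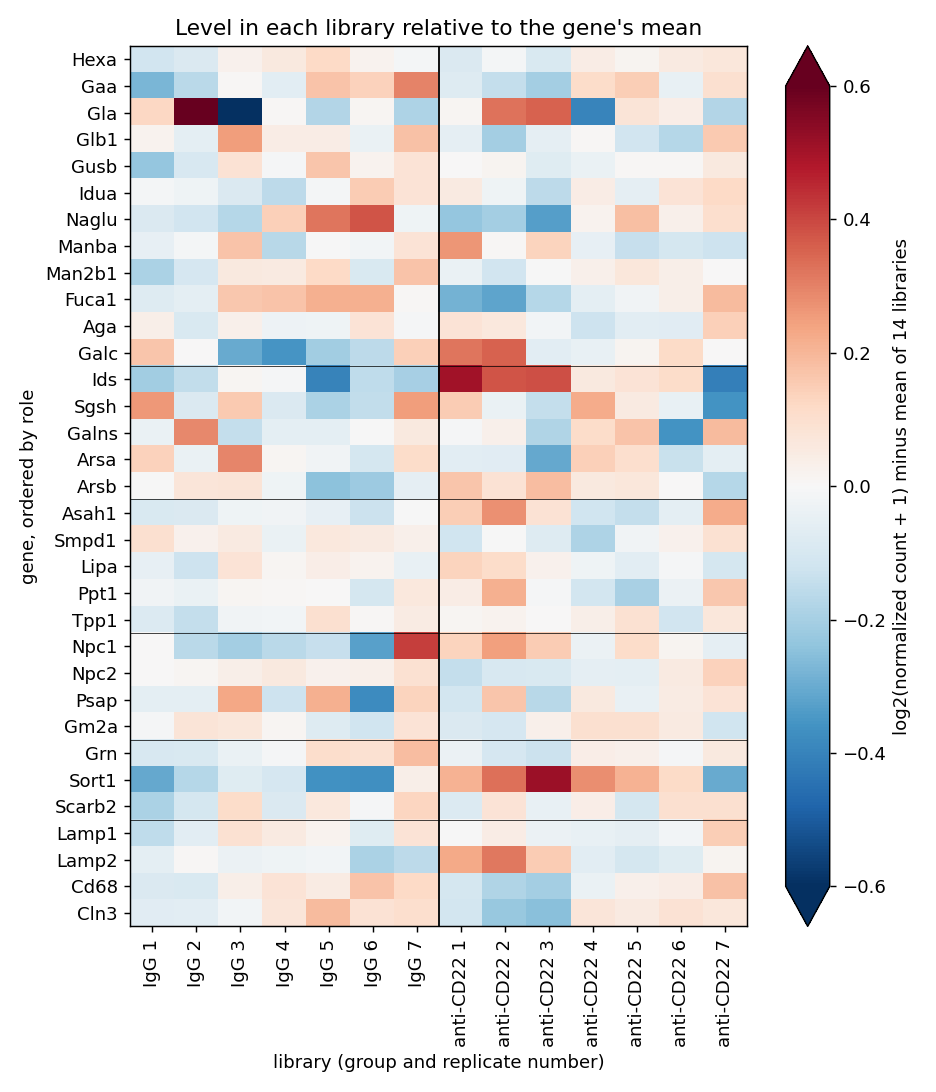
Log2 normalized count of each member (rows, by role) in each of the 14 libraries (columns), minus the member's mean over all libraries, in colour. Values are near 0 for most members and libraries, and Sort1 and Ids are above their mean in anti-CD22 replicates 1 to 6.

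The 5 lipid, thioester and peptide hydrolases comprised 4 higher and 1 lower, and the median log2 fold change was 0.022. Asah1, the acid ceramidase lost in Farber disease, had 32735, 34578 and 35729.6 normalized counts (lowest, median, highest) with IgG and 32383, 38036 and 43238 with anti-CD22. In 4 anti-CD22 libraries it was above every IgG library and in 1 it was below all of them (log2 fold change 0.12, 95% interval -0.01 to 0.24, adjusted p = 0.436). With the trend removed its difference was 0.09. Smpd1, the acid sphingomyelinase lost in Niemann-Pick disease types A and B, was the 1 lower member. It had 4496 ± 132 and 4252 ± 272 normalized counts (SD, n = 7; -0.08, 95% interval -0.19 to 0.03), with 6 of 7 anti-CD22 libraries below the IgG median, and -0.01 with the trend removed. Lipa, the acid lipase of cholesteryl esters, Ppt1, a palmitoyl-protein thioesterase, and Tpp1, a tripeptidyl peptidase, differed by 0.02, 0.02 and 0.03. Their 95% intervals ran from -0.09 to 0.13, from -0.10 to 0.14 and from -0.07 to 0.13. Loss of Ppt1 or Tpp1 causes childhood neuronal ceroid lipofuscinosis.

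Lipid transfer and activator proteins hand lipids to the hydrolases or out of the lysosome, and 2 of the 4 were higher and 2 lower (median 0.0008). Psap had 94823, 118420.0 and 144760.4 normalized counts (lowest, median, highest) with IgG and 109639, 127362 and 138406 with anti-CD22, so that all anti-CD22 libraries lay within the IgG range (log2 fold change 0.01, 95% interval -0.16 to 0.18). Npc1 and Npc2, the membrane and soluble cholesterol carriers lost in Niemann-Pick disease type C, had opposite signs. Npc1 had 2452 ± 453 and 2716 ± 207 (SD, n = 7), with all 7 anti-CD22 libraries above the IgG median and none above the highest IgG library (0.16, 95% interval -0.03 to 0.36, adjusted p = 0.466). With the trend removed its difference was 0.04. Npc2 had 14309 ± 289 and 13633 ± 947 (SD, n = 7), with 5 anti-CD22 libraries below every IgG library and 1 above all of them (-0.07, 95% interval -0.17 to 0.03, adjusted p = 0.523). With the trend removed the difference of Npc2 was -0.07. Gm2a, the activator that lifts GM2 ganglioside to β-hexosaminidase A, had 10269 ± 549.7 and 10212 ± 676 (SD, n = 7; -0.01, 95% interval -0.12 to 0.10).

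Of the 4 membrane glycoproteins, 2 were higher and 2 lower (median -0.035). Lamp1 and Lamp2 form most of the sugar coat inside the lysosomal membrane, and Lamp2 also serves autophagy. Lamp2 (chromosome X: 38401357 to 38456454) ran from 38633 through a median of 42977 to 44244 normalized counts with IgG and from 40973 through 44552 to 54772 with anti-CD22. The 4 anti-CD22 libraries above every IgG library included replicates 1 to 3, which were the highest at 48885 to 54772. Its log2 fold change was 0.13 (SE 0.0632, 95% interval 0.00 to 0.27, adjusted p = 0.383). It was 0.02 with the trend removed and 0.01 without those 3 libraries. Lamp1 had 52853 ± 3351 and 53225 ± 2697 (SD, n = 7; 0.01, 95% interval -0.09 to 0.11). Cd68, a microglial phagocytosis marker, had 43642 ± 2961 and 41351 ± 3928 (SD, n = 7; -0.08, 95% interval -0.21 to 0.04), with 6 of 7 anti-CD22 libraries below the IgG median, and 0.016 with the trend removed. Cln3, the membrane protein lost in juvenile neuronal ceroid lipofuscinosis, had 4027 ± 267 and 3803 ± 384 (SD, n = 7; -0.09, 95% interval -0.23 to 0.06). With the trend removed the difference of Cln3 was -0.08.

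The order of the members' fold changes followed their base composition and length. Across the 33 genes, which share the same 14 libraries, the log2 fold change had a rank correlation of -0.713 with transcript GC content and 0.523 with transcript length. Across all genes these were -0.307 and 0.361. Lamp2 and Ids, higher with anti-CD22, have transcripts of 38.7% and 41.4% GC, and Fuca1 has 53.5%. After the trend was removed in each library the members' correlations were -0.11 with GC and -0.017 with length. The removal takes this trend out across all genes by construction, and over all genes the correlations were then -0.0071 and 0.0038. The log2 fold changes of 21 members were then nearer 0 and those of 8 changed sign. The members' median was then 0.016, against -0.010 for all genes with a length, and 20 members were higher and 13 lower. At an unadjusted p under 0.05 there was then 1 member, Sort1, against 8.93% of the 11224 genes with a length, and without anti-CD22 replicates 1 to 3 there was again Sort1 alone, against 4.99% of all genes. The part of GC, length and these libraries in the other differences was not tested further.

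**Figure D5:**
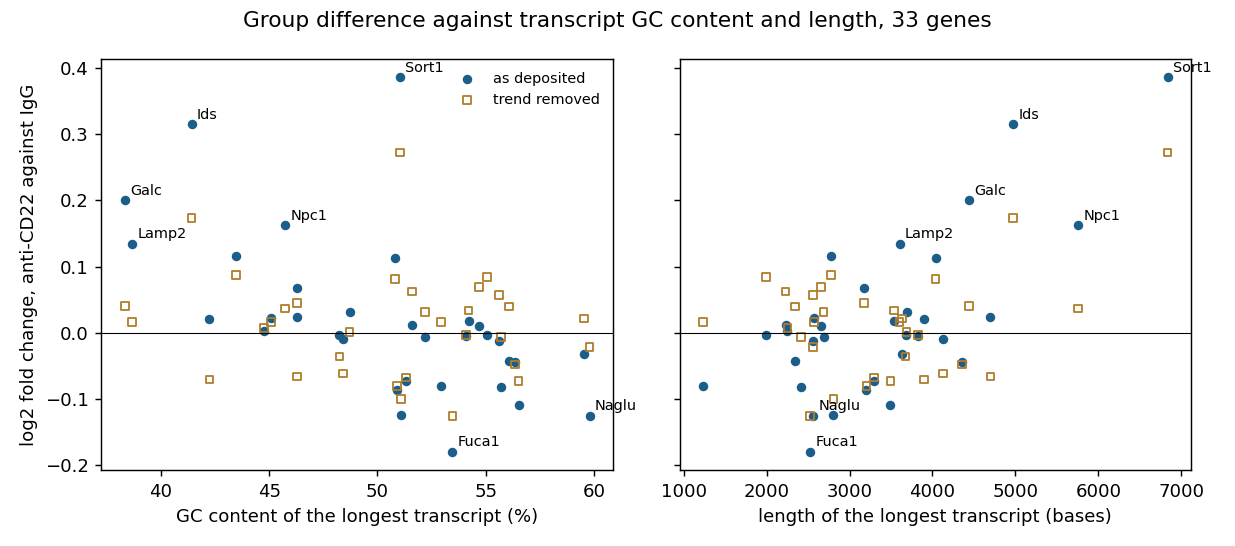
Log2 fold change of each member against its transcript GC content (percent) and its transcript length (bases), before and after removal of the trend in each library. Before removal members of lower GC content tend to lie higher (rank correlation -0.713 over 33 genes), with Sort1 highest at 51.0% GC. After removal, which takes the trend out across all genes by construction, the slope is near 0 and Sort1 is at 0.27.

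The count at an unadjusted p under 0.05 also moved with single libraries. It was 2, Ids and Sort1, without IgG replicate 3, 4 or 6 or without anti-CD22 replicate 1 or 2, and 8 without anti-CD22 replicate 7. The share over all genes moved with the same libraries: it was 9.34% to 12.01% in the fits that gave 2 members and 16.95% in the fit that gave 8. The count models on 13 libraries placed 0 members past an adjusted p of 0.05, where DESeq2 called 0.524% of the genes it adjusted and edgeR called 0%. DESeq2 gave no adjusted p for 1 member, Gla. The 3 members at an unadjusted p under 0.05 in edgeR compare with 8.82% of all genes.

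The fold changes of members with and without the E-box core overlapped. Of the 8 with CACGTG, 2 were higher with anti-CD22, the median log2 fold change was -0.065 and the range was from -0.13 to 0.07, and 0 were at an unadjusted p under 0.05. Of the 20 with a promoter and no CACGTG, 10 were higher, with a median of 0.0039 and a range from -0.18 to 0.32. With the trend removed the medians were -0.035 and 0.016. Median transcript GC content was 54.0% in the former and 51.1% in the latter. Transcript levels were the only readout, so nothing here measures the binding or activity of TFEB.

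Other lysosomal genes, from lists chosen by function, also gave no call. Of 73 listed genes 69 were tested, 23 higher and 46 lower with anti-CD22, and the median log2 fold change was -0.043, while all genes split into 5851 higher and 5795 lower. None passed adjustment, and 11 were at an unadjusted p under 0.05, 5 higher and 6 lower, against 12.8% of all genes (6.80% higher and 5.95% lower). With the trend removed the count was 7, against 8.93% of the 11224 genes with a length. Among the 27 other hydrolases tested, 9 were higher and 18 lower (median -0.074), and 7 were at that threshold, 2 of them higher and 5 lower; Arsk and Ctbs were among the former and Scpep1, Neu1 and Rnaset2b among the latter. With the trend removed this count was 4, against the same 8.93%, and the median of these hydrolases was -0.010. Rnaset2b has a near-identical copy, Rnaset2a, which was under the filter, so its count is uncertain. Scpep1 (chromosome 11: 88924020 to 88955465), a serine carboxypeptidase, was the 1 of the 69 tested genes whose groups did not overlap, as 0.258% of all genes did. It ran from 7609.5 through a median of 7827 to 8349 normalized counts with IgG and from 6674 through 7145 to 7387 with anti-CD22. The log2 fold change was -0.15 (SE 0.0449, 95% interval -0.24 to -0.06, adjusted p = 0.231 in limma and 0.0978 in DESeq2), and it was -0.10 with the trend removed.

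After Scpep1, the other hydrolases with the smallest p were Arsk, Ctbs and Neu1. Neu1, a sialidase that removes sialic acid from glycans, had 3460.1 ± 260.0 normalized counts (SD, n = 7) in IgG libraries and 3094 ± 235 (SD, n = 7) in anti-CD22 libraries (log2 fold change -0.16, 95% interval -0.30 to -0.03, adjusted p = 0.328). With the trend removed the difference of Neu1 was -0.16 (adjusted p = 0.461 in limma). Arsk, a sulfatase, had 1930.1 ± 142 and 2304 ± 246 (SD, n = 7; 0.25, adjusted p = 0.235), with 6 of 7 anti-CD22 libraries above every IgG library, and with the trend removed its log2 fold change was 0.14. Ctbs, a chitobiase of glycoprotein breakdown, had 834 ± 100.5 and 1036 ± 192 (SD, n = 7; 0.30, adjusted p = 0.315). With the trend removed the difference of Ctbs was 0.28 (adjusted p = 0.463 in limma).

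Of 16 genes of enzyme maturation and sorting, 6 were higher and 10 lower (median -0.028), and Sorl1, a sorting receptor related to Sort1, was the 1 gene at an unadjusted p under 0.05. Sorl1 had 1417 ± 329 normalized counts (SD, n = 7) in IgG libraries and 1697 ± 241 (SD, n = 7) in anti-CD22 libraries (log2 fold change 0.28, 95% interval 0.01 to 0.55, adjusted p = 0.376), and 0.12 with the trend removed. Of 26 other membrane proteins and transporters, 8 were higher and 18 lower (median -0.040), and 3 were at that threshold. The amino acid exporter gene Pqlc2 had 1905 ± 263 and 1549.6 ± 107 (SD, n = 7; -0.29, adjusted p = 0.235). With the trend removed the difference of Pqlc2 was -0.23 (adjusted p = 0.472 in limma). Slc38a9, the arginine sensor of the mTORC1 pathway, had 1210.4 ± 237 and 1522 ± 106 (SD, n = 7; 0.36, adjusted p = 0.258), and with the trend removed it was 0.17 (95% interval -0.05 to 0.40). Tmem106b, a membrane protein whose human gene modifies progranulin-linked dementia, had 1864 ± 225 and 2252 ± 397 (SD, n = 7; 0.26, adjusted p = 0.349), and with the trend removed it was 0.06.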

How the data were processed

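RNA sequencing was done on 14 libraries of sorted mouse microglia, 7 per group, with groups and replicate numbers taken from the sample titles. Per the submitters' processing notes, the authors used bcl2fastq, aligned reads with STAR to mm10 and normalized with DESeq2. Their versions, the annotation, strand setting and read filters were not found in the labels or headers. The deposited signal is a table of normalized counts, in which the authors divided each library's counts by 1 size factor. Of 24421 entries, 27 whose names are dates (at most 0.149% of a library) were left out.

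Limma was run on log2(normalized count + 1) for the 11646 genes with a mean of at least 10, with a mean-variance trend, two-sided, Benjamini-Hochberg adjusted over all genes, at a threshold of 0.05. Fold changes are on that scale. In all 14 libraries 100% of values lay within 0.1 reads of a whole number, and the reads of 13 were used for edgeR and DESeq2 as alternatives. Anti-CD22 replicate 3 was left out: 1 of its reads equals 1.009 normalized counts, and whole reads were not claimed so close to 1. No 2 replicates agreed within counting noise (lowest chi-square per gene 18.2). Length and GC content were those of each gene's longest transcript in GENCODE vM21 (GRCm38), which need not be the one expressed in microglia. They were found for 96.4% of tested genes and 33 of 33 members, and their trend was removed per library with natural splines of 4 degrees of freedom. Exon overlaps came from the same annotation: 13 of the 33 members share exon bases with another gene. Other alternatives were other pseudocounts, filters, scalings, a replicate block and leaving out libraries.

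All 33 members are named. Of each other lysosomal list up to 4 genes with the smallest p are named by rule, besides Cd22 and Rnaset2b, which was named after its values were seen. Of the other genes at an unadjusted p under 0.05, some are not reported here. The members and lists were chosen with earlier results of these data known. On simulated data of 11646 genes in this design the pipeline called 59 of 100 genes set to 1.5-fold and 90 of 100 set to 2-fold, with 6 false calls. The changed genes were drawn from those with a mean of at least 100. The simulated libraries carried no trend with length or GC content, unlike the real ones. Tools were R 4.3.3, limma 3.58.1, edgeR 4.0.16, DESeq2 1.42.0, Python 3.11.15, pandas 2.3.3, SciPy 1.17.1 and matplotlib 3.10.9.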

Additional observations from a re-analysis of the deposited data

Results flagged for a closer look

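Among 66 groups of 7 libraries (33 members in both conditions), 2 held a library that stood far from the others by Dixon's criterion at the 95% level, which by chance marks about 1 in 20 groups. Npc1 was at 3418 normalized counts in IgG replicate 7, where the next highest IgG library was at 2566 and the group's median was 2289. Without that library the log2 fold change of Npc1 was 0.25 in place of 0.16, with an adjusted p of 0.203; with all libraries and the length and GC trend removed it was 0.04. Galns was at 864 normalized counts in IgG replicate 2, where the next highest was at 737 and the median was 689. Without that library its log2 fold change was 0.03 in place of -0.01.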

How the results depend on the processing

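No member was called under any other pseudocount, filter, scaling, variance model, count model or threshold of 0.10 tried. Leaving out 1 library in turn gave 0 to 2 called members, the 2 being Sort1 and Ids without anti-CD22 replicate 7. Over all genes DESeq2 called 35 and edgeR 0, and 43 were called without anti-CD22 replicate 7, against 1. No other lysosomal gene of the lists was called under these settings. With the replicate block in limma 0 members were called and adjusted p of Sort1 was 0.140. At an unadjusted p under 0.05 were 7 of the 33 members, against 13.95% of all genes. Replicate numbers are only shared by label: deviations of same-numbered libraries correlated at -0.145 to 0.160, and 2 of 7 libraries matched best with their own number. The members' median log2 fold change was between -0.011 and 0.016 over the fits without 1 library, within the 0.044 spread between libraries. What depth limits was not tested gene by gene.

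Of 1242 values for a gene under another setting, 98 changed sign, and 24 of 46 genes never did; the 98 are at most 0.084 in size, and the cause was not tested. Rescaled to the same total, Hexa was at 0.0094, Gusb 0.0061, Manba 0.0095, Man2b1 0.0074 and Gm2a 0.0034. With quantile normalization Hexa was at 0.014, Gusb 0.010, Manba 0.0034 and Grn 0.022. DESeq2 gave Hexa 0.011, Gla -0.012, Gusb 0.00058 and Galns 0.020, and edgeR gave 0.014, -0.0086, 0.0038 and 0.024. With the length and GC trend removed, Hexa was at 0.084, Gaa 0.022, Gusb 0.032, Galns 0.057, Lipa -0.071, Grn 0.040, Scarb2 -0.066, Cd68 0.016 and Vps35 -0.071. Without anti-CD22 replicates 1 to 3, Hexa was at 0.043, Gaa 0.061, Gla -0.080, Gusb 0.0049, Naglu 0.019, Man2b1 0.033, Aga -0.028, Galns 0.021, Lipa -0.039, Ppt1 -0.033, Gm2a 0.028, Grn 0.0085, Cd68 0.012 and Cln3 0.028. Limma on the 13 libraries, chosen after seeing the data, gave Hexa 0.012, Gusb 0.0053 and Galns 0.016. Over the fits without 1 library, Hexa ranged from -0.022 to 0.017, Gaa from -0.081 to 0.014, Gla from -0.035 to 0.18, Gusb from -0.046 to 0.021, Idua from -0.0074 to 0.045, Manba from -0.047 to 0.025 and Man2b1 from -0.037 to 0.023. Aga ranged from -0.020 to 0.024, Sgsh from -0.085 to 0.012, Galns from -0.045 to 0.046, Lipa from -0.00066 to 0.039, Ppt1 from -0.012 to 0.057, Psap from -0.051 to 0.050, Gm2a from -0.029 to 0.010, Scarb2 from -0.0062 to 0.047, Lamp1 from -0.013 to 0.028 and Cd22 from -0.063 to 0.079.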
